A study of Homo sapiens with 16 samples.

Results

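TXNIP and ARRDC4, the glucose-responsive arrestin genes controlled by the MondoA:MLX transcription factor, were followed here together with their relatives, their regulators and the thioredoxins that TXNIP binds, in hPSC-CMs kept in media of different composition. The 9 genes were taken by name from the pathway, with earlier results of these data known: TXNIP, ARRDC4, ARRDC3, ARRDC2, MLXIP, MLXIPL, MLX, TXN and TXN2. All 9 were among the 43388 genes listed in the expression table. For 7 of them the level averaged over all 16 libraries was 1 TPM or more, a unit of transcript share that is scaled for gene length and library total,, and these were among the 16122 genes tested. ARRDC2 and MLXIPL fell below that level and are described by their read counts only.

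The cells were cardiomyocytes made from WTC11, a wild-type human induced pluripotent stem cell line, through cardiac progenitors that had been frozen and thawed. Each of the 4 groups held 4 libraries of bulk total RNA, each from its own well: cells at Day 16 in RPMI/B27, and cells at Day 30 after culture in RPMI/B27, in RPMI_glcM/B27 or in HPLM/B27. RPMI/B27 is the standard RPMI 1640 medium with the B27 supplement and holds more glucose than plasma does. RPMI_glcM/B27 is the same medium with glucose set to 5 mM, the concentration of HPLM. HPLM, human plasma-like medium, follows the polar metabolites and salts of human plasma, so HPLM/B27 differed from RPMI_glcM/B27 in components other than glucose. From the thawed progenitor stage to Day 16 all cells were in RPMI/B27. The study's text places this RNA-seq in 1 differentiation, so the 4 wells of a group are not separate differentiations, and p-values measure the spread between wells only.

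MondoA, encoded by MLXIP, and its partner MLX wait in the cytoplasm at the outer mitochondrial membrane. When glucose 6-phosphate rises, the heterodimer moves to the nucleus and binds carbohydrate response elements, which are E-box-like motifs that occur in spaced pairs. TXNIP is its best known target: the protein is an alpha-arrestin that binds reduced thioredoxin and promotes endocytosis of the glucose transporters encoded by SLC2A1 and SLC2A4. ARRDC4 is a close relative with the same regulator. ChREBP, encoded by MLXIPL, is the MondoA paralogue of liver and adipose tissue.

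The promoters of TXNIP and ARRDC4 are shown because the measured differences were largest at these genes and because the first holds the paired motif. Each sequence is the 250 bases before the RefSeq start site in GRCh38.p14, read 5′ to 3′ on the gene's strand, and capitals mark the motif found. TXNIP lies at chr1:145992435-145996579 (minus strand, GENCODE on hg38) and its window is chr1:145996580-145996829. ARRDC4 lies at chr15:97960703-97973833 (plus strand) and its window is chr15:97960453-97960702.
TXNIP: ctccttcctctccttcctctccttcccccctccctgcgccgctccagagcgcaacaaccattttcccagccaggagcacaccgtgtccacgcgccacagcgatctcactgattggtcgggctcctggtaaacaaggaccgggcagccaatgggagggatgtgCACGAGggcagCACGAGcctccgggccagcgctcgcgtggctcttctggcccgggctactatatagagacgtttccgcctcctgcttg
ARRDC4: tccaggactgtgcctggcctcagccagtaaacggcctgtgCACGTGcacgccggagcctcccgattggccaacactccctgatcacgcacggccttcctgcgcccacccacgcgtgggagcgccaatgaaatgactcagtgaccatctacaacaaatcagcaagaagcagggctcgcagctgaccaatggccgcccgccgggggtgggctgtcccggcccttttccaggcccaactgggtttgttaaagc
In the TXNIP window, copies of CACGAG stood in a pair, in the same orientation and with 5 bases between them, from base -88 to base -72 relative to the start. The ARRDC4 window held the E-box CACGTG from -210 to -205. Both strands of the promoters were searched for 3 patterns: the E-box CACGTG, a direct pair written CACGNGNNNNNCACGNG and an inverted pair written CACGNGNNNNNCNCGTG. An E-box is itself a possible part of either pair. The direct pair was in 16 of 27305 promoters of this length (0.0586%), the inverted pair in 6 (0.022%) and the E-box in 1772 (6.49%). Since the spacing searched was that of the known element of TXNIP, its presence there is no finding. RefSeq promoters were at hand for 8 of the 9 genes. Among these, MLX also held an E-box, from -50 to -45, and no pattern was in the windows of the other 5. A match describes letters in a window and was not tested for binding.

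Library-level measures were read before the members. The libraries held 7744768 to 16183655 reads on genes. The mitochondrial ribosomal RNA RNR1 ranged from 49.5 to 29276 TPM, and RPMI/B27 replicates 3 and 4 of Day 30 held the highest values (14387 and 29276 TPM). The 12 cardiomyocyte markers were all detected and summed to 14952 to 20372 TPM per library. Of these, 1 of 12 was called in each 5 mM medium, and the list's median difference was 0.20 (RPMI_glcM/B27) and -0.0037 (HPLM/B27). That gene was the adult troponin TNNI3, which rose by 1.22 in RPMI_glcM/B27 (adjusted p = 8.40e-05) and by 1.73 in HPLM/B27 (adjusted p = 2.98e-06) against RPMI/B27 on the log2 scale. With limma-voom on recovered reads, RPMI_glcM/B27 had 3 of the 12 higher and 2 lower, and HPLM/B27 had 5 higher and 0 lower. The same fit put 1077 of 15423 genes higher and 916 lower for RPMI_glcM/B27, against 1333 and 1151 for HPLM/B27. For the other marker calls, the shares over all tested genes were 1.36% and 1.51% higher and 0.837% and 0.893% lower, in the same order. Markers of other cells also differed between the media. The sum of 12 hepatic endoderm markers was 167 to 269 TPM in RPMI/B27, 52.8 to 119 TPM in RPMI_glcM/B27 and 52.6 to 135 TPM in HPLM/B27. Of its 10 tested genes 6 and 7 were called lower, among them the fibrinogen gene FGA (-1.47 and -1.65, adjusted p = 0.00245 and 8e-04). The FGA calls held in all 8 fits that each left out 1 library. Those of APOA2 were lost in 8 of the 8 fits in RPMI_glcM/B27 and in 7 in HPLM/B27. For AFP they were lost in 6 and 4 fits, and for FGB in 3 and 1. At Day 16, where TXNIP was at 81.8 to 180.1 TPM, this sum was 463 to 815 TPM, and 0 of its 12 markers were at 0 in all libraries of any group. The sum of 10 fibroblast markers was 151 to 300.1 TPM in RPMI/B27, 118 to 163 TPM in RPMI_glcM/B27, 122 to 186 TPM in HPLM/B27 and 240 to 437 TPM at Day 16. The collagen gene COL1A2 was the 1 of 6 tested that was called lower in both media (-1.24 and -0.81, adjusted p = 0.00393 and 0.0421). Its HPLM/B27 call was lost (adjusted p 0.0593 to 0.119) without RPMI/B27 replicate 1 or 2 or any single HPLM/B27 library. Smooth muscle markers summed to 235 to 997 TPM, endothelial markers to 13.6 to 54.8 TPM and pluripotency markers to 1.74 to 9.92 TPM over all libraries. The part of other cell types in the differences given next was not tested.

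TXNIP and ARRDC4 were far lower in both media with 5 mM glucose than in RPMI/B27, and 2 to 3 of the 7 tested genes passed the test in each of these comparisons. Compared with RPMI/B27, RPMI_glcM/B27 had 2 of 7 lower and 0 higher, against 0.837% of all 16122 tested genes that were called lower. HPLM/B27 had 3 of 7 lower and 0 higher, against 0.893% called lower over all genes. The test was limma on log2(TPM + 1) over all 4 groups, with Benjamini-Hochberg adjustment over all tested genes and a threshold of 0.05. Both comparisons used the same RPMI/B27 libraries as controls, so they are not independent of each other.

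TXNIP in RPMI/B27 was at 159, 243, 57.5 and 95.8 TPM in the 4 libraries at Day 30. In RPMI_glcM/B27 it was at 5.40, 5.55, 4.61 and 2.45 TPM, and in HPLM/B27 at 6.14, 2.72, 2.55 and 6.16 TPM. All 8 libraries of the 5 mM media lay below all 4 RPMI/B27 libraries, with a wide gap between them. Groups that do not overlap in this direction were seen in 2.6% of tested genes for RPMI_glcM/B27 and 3.17% for HPLM/B27. The mean of TXNIP was 139 ± 81.1 TPM (SD, n = 4) in RPMI/B27. In RPMI_glcM/B27 it was 4.50 ± 1.43 TPM, and the geometric mean was 28.1-fold lower. It was 4.39 ± 2.03 TPM in HPLM/B27, 30.0-fold below RPMI/B27 by geometric means. On the log2(TPM + 1) scale, which understates the fold of low values, the differences were -4.51 (SE 0.39, adjusted p = 4.42e-05) and -4.58 (SE 0.39, adjusted p = 1.19e-05). TXNIP ranked 1 of 16122 from the lowest difference on this scale in both comparisons. As the genes were chosen with earlier results of these data known, ranks and counts of members are descriptions. Behind these values stood 1381 to 4395 reads per library in RPMI/B27 and 30 to 98 reads in the 5 mM media. The lowest count, 30 reads, had an exact Poisson 95% interval of 20.2 to 42.8, which covers counting error only. In bulk RNA, fewer cells of a type and less RNA per cell cannot be told apart.

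ARRDC4 showed the same order of groups at a lower level. The 4 RPMI/B27 libraries were at 27.8, 32.9, 12.8 and 15.2 TPM. In RPMI_glcM/B27 it was at 1.48, 2.04, 2.55 and 1.14 TPM, and HPLM/B27 libraries were at 2.37, 2.29, 2.34 and 3.74 TPM. Again every library of the 5 mM media was below every RPMI/B27 library. By geometric means ARRDC4 was 11.9-fold lower in RPMI_glcM/B27 and 7.82-fold lower in HPLM/B27. The log2 differences were -2.97 (SE 0.27, adjusted p = 5.16e-05) and -2.57 (SE 0.27, adjusted p = 7.32e-05), at rank 3 and rank 5 from the lowest of all tested genes. The libraries of the 5 mM media held 17 to 62 ARRDC4 reads each. With RNR1 as a covariate, ARRDC4 differed by -3.08 (adjusted p = 3.97e-05) and -2.70 (adjusted p = 7.59e-05), and TXNIP by -4.64 (adjusted p = 3.97e-05) and -4.73 (adjusted p = 1.87e-05).

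ARRDC3, an alpha-arrestin known for its part in trafficking of beta-adrenergic receptors, differed less. It was at 26.97, 32.2, 16.0 and 15.3 TPM in RPMI/B27, at 12.7, 13.6, 13.9 and 12.8 TPM in RPMI_glcM/B27 and at 8.45, 13.8, 8.92 and 9.79 TPM in HPLM/B27. All libraries of the 5 mM media were below all RPMI/B27 libraries, but the margin to RPMI/B27 replicates 3 and 4 was small. Against RPMI/B27, the difference of HPLM/B27 was -1.03 on the log2 scale (SE 0.22, adjusted p = 0.0205). This call was lost at a difference of -0.92 to -1.02 (adjusted p 0.0503 to 0.0761) when RPMI/B27 replicate 1 or HPLM/B27 replicate 1, 3 or 4 was left out, and at adjusted p = 0.139 when only these 2 groups were fitted. The difference of RPMI_glcM/B27 from RPMI/B27 was -0.66 (SE 0.22, adjusted p = 0.147), which did not pass. It did pass when libraries were rescaled by median-of-ratios factors (-0.72, adjusted p = 0.00236), a scaling under which 5.64% of all tested genes were called lower. With RNR1 as a covariate it was -0.81 (adjusted p = 0.0195), and it also passed with replicate number as a block in the fit. Those fits called 4.51% and 4.47% of all genes. It was also called lower by limma-voom on recovered reads, which called 12.9% of all genes. In all, it passed in 5 of the 9 alternatives that kept every library. ARRDC3 overlaps the antisense gene ARRDC3-AS1, and the sources used here do not say whether reads were counted by strand.

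ARRDC2, the remaining arrestin of the set, had 2 to 31 reads per library and was not tested. Its mean was 0.422 ± 0.188 TPM (SD, n = 4) in RPMI/B27, 0.509 ± 0.242 TPM in RPMI_glcM/B27 and 0.657 ± 0.383 TPM in HPLM/B27, and these groups overlapped. The 4 libraries of Day 16 had 4, 31, 6 and 14 reads, so replicate 2 alone held more than the others together.

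**Figure D1:**
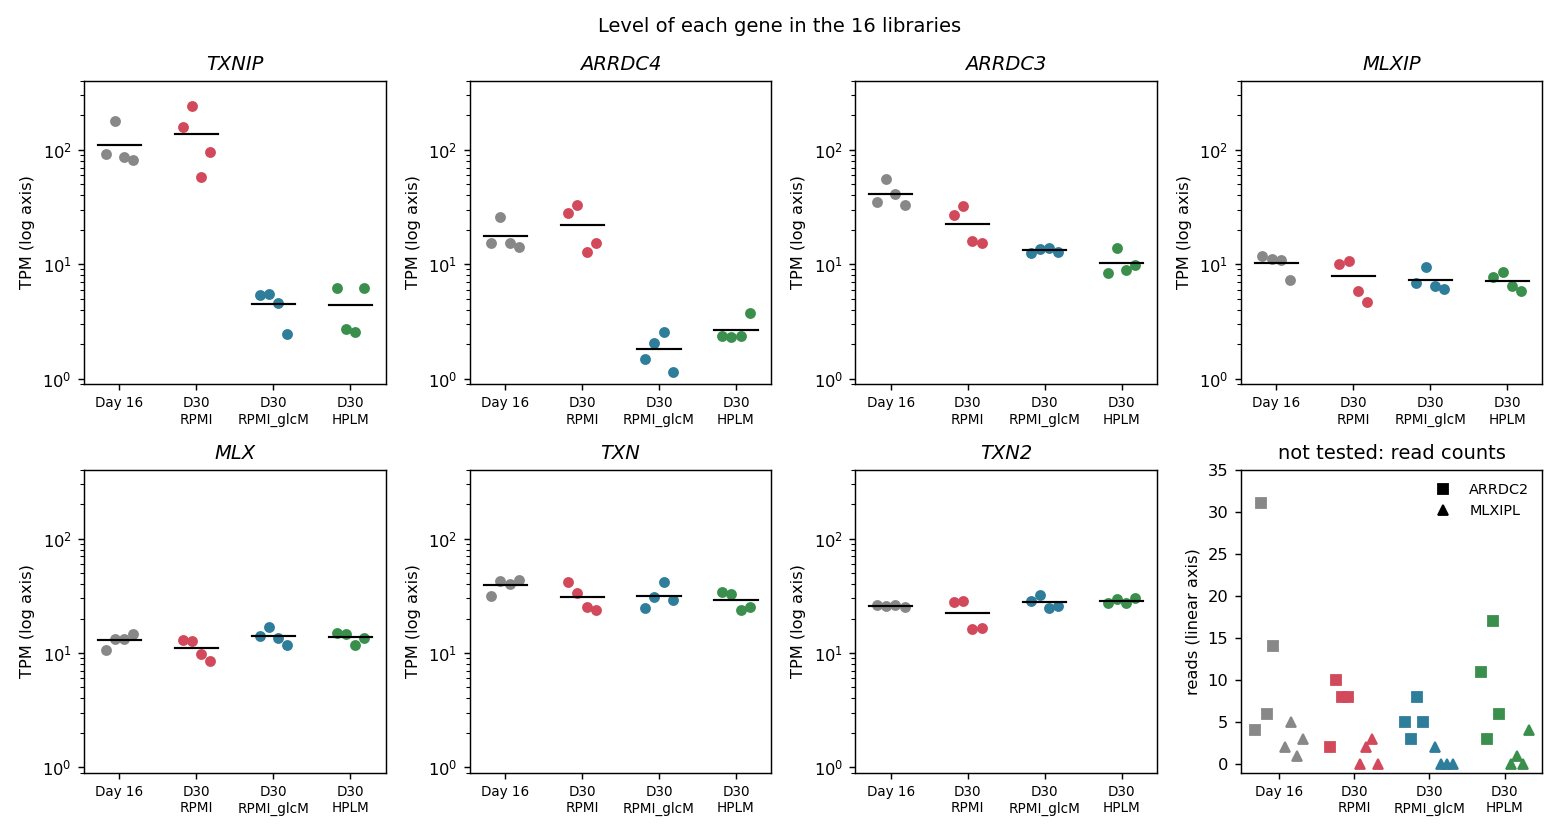
TPM of the 7 tested genes in each of the 16 libraries (log axis, line at the mean of 4 libraries), and read counts of ARRDC2 and MLXIPL (linear axis), by group. TXNIP and ARRDC4 in both 5 mM media sit below every RPMI/B27 and Day 16 library, while the groups of MLXIP and TXN overlap throughout Day 30.

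The regulators themselves did not pass the test in any Day 30 comparison. MLXIP, encoding MondoA, was at 10.1, 10.7, 5.82 and 4.66 TPM in RPMI/B27, at 6.84, 9.52, 6.52 and 6.04 TPM in RPMI_glcM/B27 and at 7.77, 8.54, 6.41 and 5.87 TPM in HPLM/B27. The groups overlapped, and RPMI/B27 spanned the range of the others. The log2 differences from RPMI/B27 were -0.05 in RPMI_glcM/B27 (95% interval -0.53 to 0.43, adjusted p = 0.949) and -0.06 in HPLM/B27 (95% interval -0.54 to 0.42, adjusted p = 0.942). Its partner MLX had a mean of 10.98 ± 2.17 TPM (SD, n = 4) in RPMI/B27, 14.1 ± 2.14 TPM in RPMI_glcM/B27 and 13.7 ± 1.51 TPM in HPLM/B27. The differences of MLX from RPMI/B27 were 0.34 (95% interval 0.02 to 0.66, adjusted p = 0.305) and 0.31 (95% interval -0.02 to 0.63, adjusted p = 0.363). Part of the MLX gene overlaps PSMC3IP on the other strand.

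MLXIPL, encoding ChREBP, was near the limit of detection. Libraries of Day 16 had 2, 5, 1 and 3 reads, RPMI/B27 had 0, 2, 3 and 0, RPMI_glcM/B27 had 2, 0, 0 and 0, and HPLM/B27 had 0, 1, 0 and 4. A count of 0 allows up to 3 reads, so no difference between groups was detectable at this depth. On the per-length TPM scale the highest library of MLXIPL, at 0.304 TPM, was below the lowest library of MLXIP, at 4.66 TPM.

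Among the thioredoxins, TXN encodes the cytosolic protein that TXNIP binds and TXN2 the mitochondrial one. TXN was at 42.0, 33.5, 25.3 and 23.8 TPM in RPMI/B27, at 24.8, 30.8, 41.9 and 29.2 TPM in RPMI_glcM/B27 and at 34.2, 32.6, 23.9 and 25.3 TPM in HPLM/B27. These values overlapped throughout. The log2 differences of TXN from RPMI/B27 were 0.03 in RPMI_glcM/B27 (95% interval -0.37 to 0.44, adjusted p = 0.960) and -0.08 in HPLM/B27 (95% interval -0.49 to 0.33, adjusted p = 0.905). The sign of the first turned to -0.03 after median-of-ratios rescaling. TXN2 was at 27.8, 28.3, 16.1 and 16.4 TPM in RPMI/B27, at 28.5, 32.4, 24.8 and 25.9 TPM in RPMI_glcM/B27 and at 27.5, 29.4, 27.1 and 30.0 TPM in HPLM/B27. RPMI/B27 replicates 3 and 4, the libraries highest in RNR1, stood below every other library. Its differences of 0.36 (adjusted p = 0.313) and 0.40 (adjusted p = 0.253) did not pass, but after rescaling they were 0.30 (adjusted p = 0.0315) and 0.41 (adjusted p = 0.00496), where 6.46% and 7.43% of all genes were called higher and 5.64% and 5.55% lower. With RNR1 as a covariate they were 0.27 (adjusted p = 0.319) and 0.29 (adjusted p = 0.234).

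The ratio of TXN to TXNIP within a library does not depend on scaling. It is made from the same values as the differences of TXNIP and TXN already given, so its tests are no independent evidence. TXN over TXNIP in TPM was 0.264, 0.138, 0.439 and 0.248 in RPMI/B27. It was 4.59, 5.55, 9.09 and 11.9 in RPMI_glcM/B27 and 5.56, 12.0, 9.34 and 4.11 in HPLM/B27. TXN was below TXNIP in all 4 RPMI/B27 libraries and above it in all 8 libraries of the 5 mM media. At Day 16 the ratio was 0.348, 0.236, 0.460 and 0.529, also below 1 in all 4 libraries. The mean log2 ratio was 4.85 higher in RPMI_glcM/B27 and 4.82 higher in HPLM/B27 than in RPMI/B27 (two-sided exact permutation test, p = 0.0286 each, adjusted p = 0.0429 over 12 tests), where 0.0286 is the smallest p that 4 against 4 can give. HPLM/B27 and RPMI_glcM/B27 differed by -0.03 (exact permutation p = 0.971). RPMI/B27 at Day 30 differed from Day 16 by -0.58 in log2 (exact permutation p = 0.257, adjusted p = 0.309).

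TXNIP also changed relative to ARRDC4. The ratio of TXNIP to ARRDC4 in TPM was 5.72, 7.39, 4.50 and 6.30 in RPMI/B27, 3.65, 2.73, 1.81 and 2.15 in RPMI_glcM/B27, and 2.59, 1.19, 1.09 and 1.65 in HPLM/B27. Both 5 mM groups were below RPMI/B27 without overlap, and they overlapped each other. The log2 ratio was lower than in RPMI/B27, with a difference of -1.24 in RPMI_glcM/B27 and -1.94 in HPLM/B27 (exact permutation test, two-sided p = 0.0286 each, adjusted p = 0.0429). For HPLM/B27 against RPMI_glcM/B27 the difference was -0.70 (exact permutation p = 0.114, adjusted p = 0.152). The ratio was 5.97, 6.93, 5.62 and 5.77 at Day 16, which overlapped RPMI/B27 at Day 30.

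**Figure D2:**
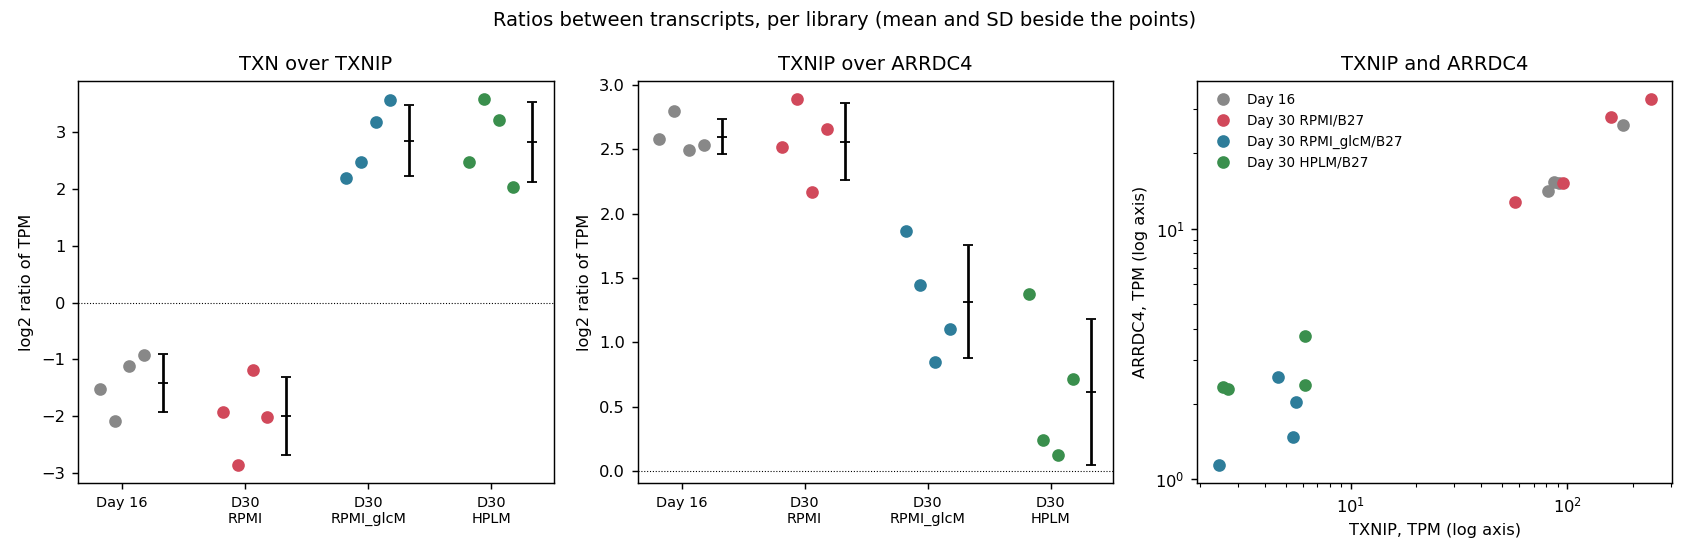
Log2 ratio of TXN to TXNIP (left) and of TXNIP to ARRDC4 (middle) in each library with the mean and SD of 4 libraries beside the points, and TPM of ARRDC4 against TXNIP on log axes (right). The TXN to TXNIP ratio is below 0 on the log2 scale in all Day 16 and RPMI/B27 libraries and above 0 in all libraries of the 5 mM media.

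Between the media of equal glucose, HPLM/B27 and RPMI_glcM/B27, 0 of the 7 genes passed limma's test, against 0.0682% called over all genes. At an unadjusted p under 0.05 of that fit it was also 0, and limma-voom on recovered reads called 0. ARRDC3 had an unadjusted p of 0.0488 with limma-voom (adjusted p = 0.373) and of 0.0387 with RNR1 as a covariate (adjusted p = 0.402). The log2 difference was -0.07 for TXNIP (95% interval -0.89 to 0.76, adjusted p = 0.993), with a sign that turned after rescaling. It was 0.40 for ARRDC4 (95% interval -0.17 to 0.98, adjusted p = 0.892) and -0.37 for ARRDC3 (95% interval -0.83 to 0.10, adjusted p = 0.868). These intervals give the differences that remain compatible with the values at this depth and number of wells.

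**Figure D3:**
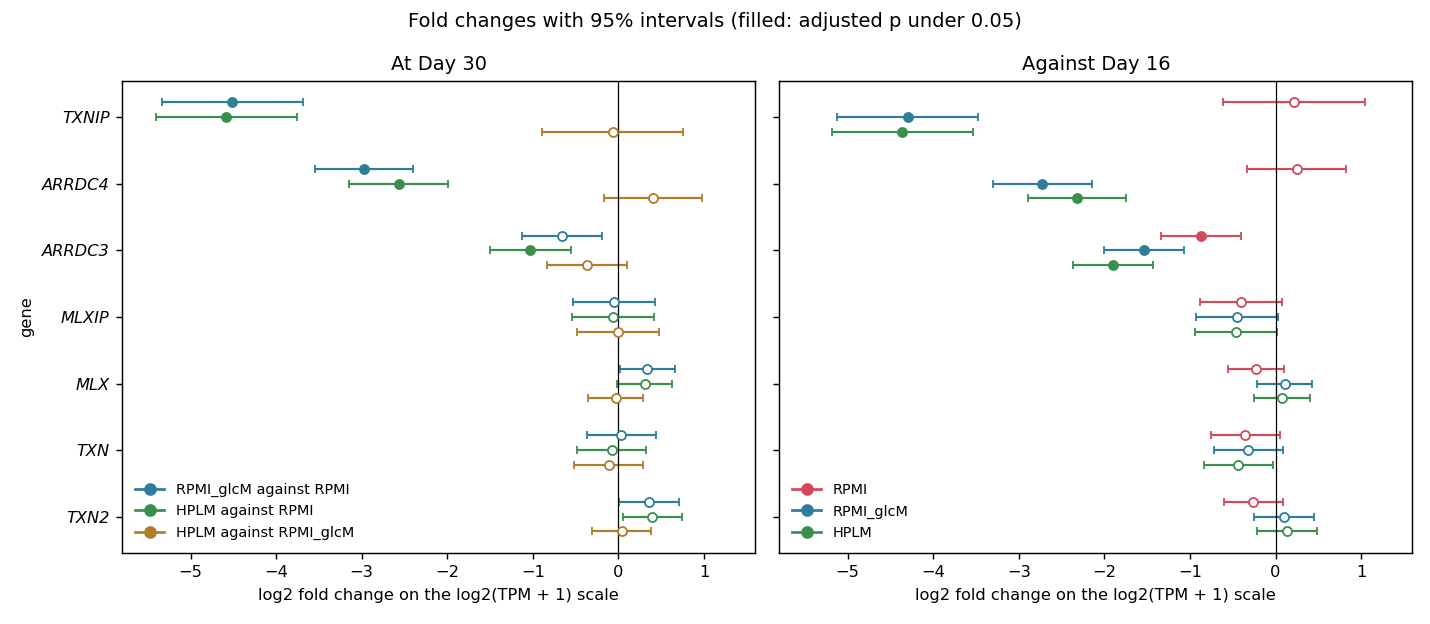
Log2 fold change with its 95% interval for the 7 tested genes in 3 comparisons at Day 30 (left) and 3 against Day 16 (right), on the log2(TPM + 1) scale, with filled points where the adjusted p was under 0.05. TXNIP lies near -4.5 in both 5 mM media against RPMI/B27 and near 0 between them.

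Day 16 cells, harvested from RPMI/B27, showed where the levels stood before the media were changed. TXNIP was at 91.3, 180.1, 86.6 and 81.8 TPM and ARRDC4 at 15.3, 26.0, 15.4 and 14.2 TPM, in both cases within the range of RPMI/B27 at Day 30. Against Day 16, RPMI/B27 at Day 30 had 1 of 7 genes lower, against 17.8% of all tested genes. RPMI_glcM/B27 had 3 of 7 lower, against 17.8%, and HPLM/B27 had 3 of 7 lower, against 22.4%. The 3 comparisons share the Day 16 libraries, and the median difference over all tested genes was itself -0.28, -0.22 and -0.29. Median-of-ratios rescaling removed that shift, after which 8.76%, 13.6% and 11.9% of genes were called lower and 8.76%, 14.0% and 13.4% higher. For TXNIP the log2 differences were 0.22 in RPMI/B27 (adjusted p = 0.706), -4.30 in RPMI_glcM/B27 (adjusted p = 2.51e-06) and -4.36 in HPLM/B27 (adjusted p = 2.13e-06). After rescaling they were 0.55, -4.03 and -4.03. ARRDC4 differed from Day 16 by 0.25 (adjusted p = 0.525), -2.72 (adjusted p = 6.15e-06) and -2.32 (adjusted p = 2.75e-05). The first of these passed only with limma-voom on recovered reads (0.59, adjusted p = 0.0122).

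ARRDC3 also fell between Day 16 and Day 30 within RPMI/B27. It was at 34.8, 55.2, 41.3 and 33.1 TPM at Day 16, above every Day 30 library. The differences were -0.87 in RPMI/B27 (SE 0.22, adjusted p = 0.013), -1.54 in RPMI_glcM/B27 (SE 0.22, adjusted p = 1.65e-04) and -1.90 in HPLM/B27 (SE 0.22, adjusted p = 2.61e-05). After rescaling they were -0.54, -1.27 and -1.57. Groups without overlap in this direction were found for 16.2%, 25.9% and 32.1% of all genes. The RPMI/B27 call was lost when only the 2 groups were fitted (adjusted p = 0.0724) and when RNR1 was a covariate (-0.52, adjusted p = 0.142). MLXIP was at 11.9, 11.01, 10.9 and 7.31 TPM at Day 16, MLX at 10.6 to 14.8 TPM, TXN at 31.8 to 43.3 TPM and TXN2 at 25.3 to 26.5 TPM. None of these 4 genes passed limma's test against Day 16 on log2(TPM + 1), with MLXIP at -0.40, -0.45 and -0.46 (adjusted p = 0.208, 0.171 and 0.140). With only the 2 groups fitted, TXN passed in HPLM/B27 against Day 16 (-0.43, adjusted p = 0.0416), where 36.2% of all genes were called and 5198 of 16122 were lower. With replicate number as a block in the fit, MLXIP passed in RPMI_glcM/B27 and HPLM/B27 (adjusted p = 0.0331 and 0.026). That fit called 27.8% and 34.2% of all genes. After rescaling, MLX (0.36 and 0.40, adjusted p = 0.0359 and 0.0227) and TXN2 (0.36 and 0.47, adjusted p = 0.00458 and 6.76e-04) were called higher in RPMI_glcM/B27 and HPLM/B27.

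Other reported targets of MondoA or ChREBP were called in both directions. Of 22 such genes 13 were tested. In RPMI_glcM/B27 against RPMI/B27, 2 were called higher and 1 lower, with a median difference of 0.18 against 0.05 for all genes. In HPLM/B27, 3 were higher and 1 lower, with a median of 0.09 against -0.02. Over all genes 1.36% and 1.51% were called higher. KLF10, a transcriptional repressor of glycolytic and lipogenic genes, was the one that fell. KLF10 was at 8.29 ± 2.42 TPM (SD, n = 4) in RPMI/B27, 4.06 ± 1.19 TPM in RPMI_glcM/B27 and 3.83 ± 0.623 TPM in HPLM/B27, without overlap. Its differences were -0.87 (adjusted p = 0.039) and -0.92 (adjusted p = 0.0295). The call was lost in RPMI_glcM/B27 (differences -0.72 to -0.95, adjusted p 0.0528 to 0.111) without RPMI/B27 replicate 1, 2 or 3 or RPMI_glcM/B27 replicate 1, 2 or 4. It was lost in HPLM/B27 (differences -0.77 to -0.92, adjusted p 0.0633 to 0.0909) without RPMI/B27 replicate 1 or 2 or HPLM/B27 replicate 2, 3 or 4.

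HK2 and LDHA, which encode hexokinase 2 and lactate dehydrogenase A of glycolysis, were higher in both 5 mM media than in RPMI/B27 at Day 30. Against Day 16, limma-voom on recovered reads called HK2 lower in RPMI/B27, where 1773 of 15423 genes were called lower. That fit did not call HK2 in RPMI_glcM/B27 against Day 16. HK2 was at 23.3 ± 2.87 TPM in RPMI/B27, 44.3 ± 5.90 TPM in RPMI_glcM/B27 and 56.5 ± 12.0 TPM in HPLM/B27 (SD, n = 4). The differences of HK2 were 0.90 (adjusted p = 0.0057) and 1.23 (adjusted p = 3.32e-04). LDHA rose by 0.93 (adjusted p = 0.00114) and 0.76 (adjusted p = 0.00374). With only the 2 groups fitted, the HK2 call in RPMI_glcM/B27 (adjusted p = 0.0506) and the LDHA call in HPLM/B27 (adjusted p = 0.0814) were lost. SCD, the stearoyl-CoA desaturase, passed in HPLM/B27 (0.77, adjusted p = 0.0183) and missed the threshold in RPMI_glcM/B27 (0.54, adjusted p = 0.101). The SCD call was lost without HPLM/B27 replicate 2 or 3 (differences 0.64 and 0.76, adjusted p 0.0694 and 0.0646). Whether SCD differed between the media was not called in the direct comparison.

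Genes of hexose uptake and phosphorylation, the step that makes the glucose 6-phosphate sensed by MondoA, gave calls in the higher direction only: 3 of 11 tested in RPMI_glcM/B27 and 4 of 11 in HPLM/B27, against 1.36% and 1.51% of all genes called higher, with median differences of 0.29 and 0.55. SLC2A1, the GLUT1 transporter, was at 27.4 ± 5.88 TPM in RPMI/B27, 64.7 ± 8.23 TPM in RPMI_glcM/B27 and 63.1 ± 12.5 TPM in HPLM/B27 (SD, n = 4). Against RPMI/B27 it was higher by 1.23 (adjusted p = 0.00196) and 1.19 (adjusted p = 0.002). SLC2A4, the insulin-responsive GLUT4 transporter of muscle, went from 12.0 ± 4.96 TPM to 28.9 ± 3.62 and 30.2 ± 7.17 TPM, with differences of 1.28 (adjusted p = 0.0302) and 1.32 (adjusted p = 0.0242). The SLC2A4 call was lost in RPMI_glcM/B27 (differences 1.02 to 1.36, adjusted p 0.0505 to 0.092) without RPMI/B27 replicate 3 or 4 or any single RPMI_glcM/B27 library. In HPLM/B27 it was lost (differences 1.05 to 1.23, adjusted p 0.0556 to 0.0902) without RPMI/B27 replicate 3 or HPLM/B27 replicate 2 or 3. SLC2A3, the GLUT3 transporter, passed in HPLM/B27 (0.70, adjusted p = 0.0472), and that call was lost (differences 0.57 to 0.74, adjusted p 0.082 to 0.166) without RPMI/B27 replicate 3 or 4 or HPLM/B27 replicate 2, 3 or 4. HK2 belongs to this list too. At Day 30, transcripts of SLC2A1 and SLC2A4, whose proteins TXNIP acts on, were thus above RPMI/B27 in the media where TXNIP was lower. In RPMI/B27 against Day 16, 6 of the 11 were called lower and 0 higher, against 17.8% of all genes called lower. TXNIP did not pass limma's test there (0.22, adjusted p = 0.706). With limma-voom, SLC2A1 and HK2 were among 6 called lower, against 1773 of 15423 genes. Against Day 16, RPMI_glcM/B27 had 1 higher and 4 lower, and HPLM/B27 had 1 and 2, against 17.8% and 22.4% called lower.

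**Figure D4:**
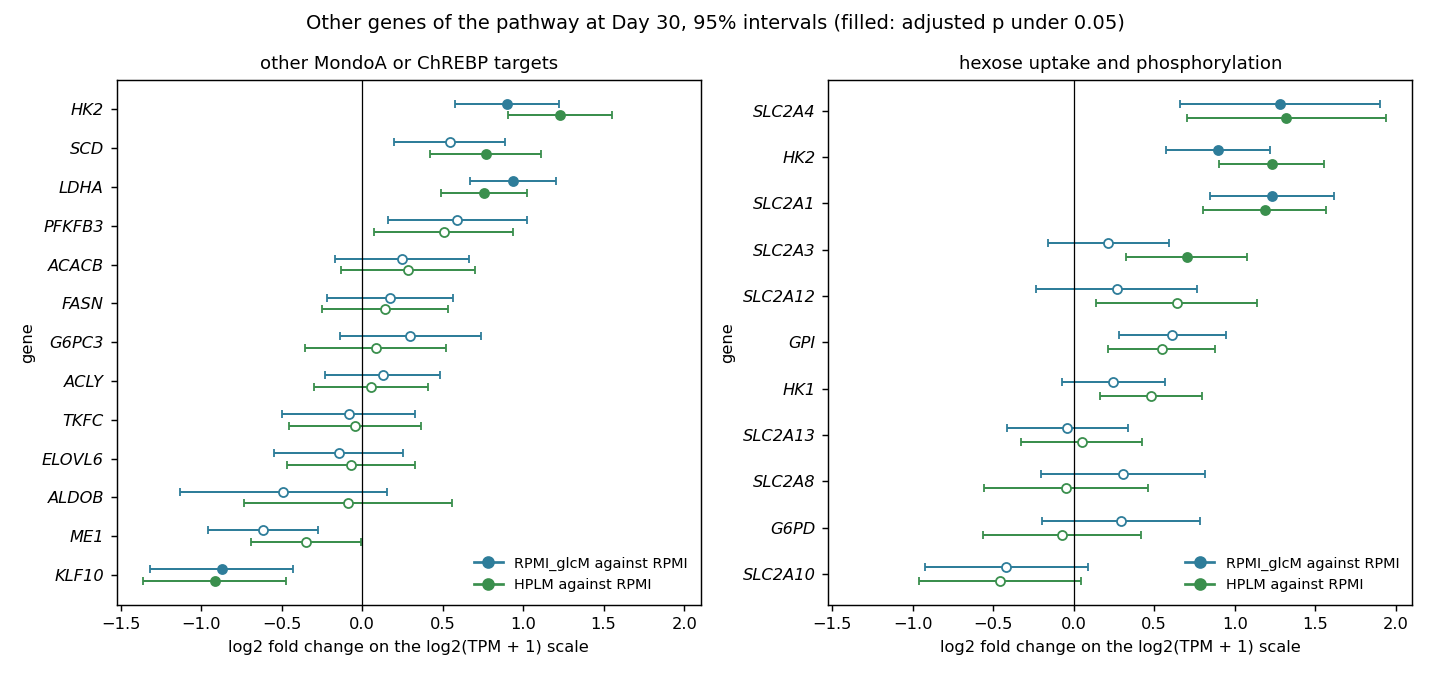
Log2 fold change against RPMI/B27 with its 95% interval for the 13 tested other MondoA or ChREBP targets (left) and the 11 tested genes of hexose uptake and phosphorylation (right), on the log2(TPM + 1) scale, with filled points where the adjusted p was under 0.05. KLF10 is the filled point below 0, and HK2, LDHA, SLC2A1 and SLC2A4 are filled above 0 in both media.

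Genes around the redox and turnover functions of TXNIP were examined next. Of 21 other genes of the thioredoxin system (reductases, peroxiredoxins, glutaredoxins and methionine sulfoxide reductases), 0 passed limma's test in either comparison with RPMI/B27. At an unadjusted p under 0.05 there were 3 in RPMI_glcM/B27 and 6 in HPLM/B27, and limma-voom on recovered reads called 1 and 6. Over all genes, 2408 and 2447 of 16122 had an unadjusted p under 0.05, and limma-voom called 12.9% and 16.1%. These shares are also the background of the counts that follow. Among 11 tested partners of TXNIP and HECT ubiquitin ligases, which include the TXNIP ligase ITCH, limma called 0, with 0 and 1 at an unadjusted p under 0.05, and limma-voom called 2 and 3. For 8 tested genes of the MYC, MAX and MLX network limma called 0, with 0 and 1 at an unadjusted p under 0.05. Here limma-voom tested 9 genes and called 2 in each comparison. ARRDC1, the tested member of the other alpha-arrestins, differed by 0.13 (adjusted p = 0.831) in RPMI_glcM/B27. TXNIP also answers to FOXO factors and glucocorticoids. Of 13 tested FOXO targets, 1 rose in RPMI_glcM/B27 and 2 rose in HPLM/B27, against 1.36% and 1.51% of all genes called higher. The list medians were 0.03 and 0.01, and limma-voom, which tested 14 of these targets, called 3 higher and 2 lower in each comparison. IRS2, the insulin receptor substrate, rose by 0.86 (adjusted p = 0.0321) and 1.07 (adjusted p = 0.00784), and FBXO32, the atrogin-1 ubiquitin ligase, rose by 1.42 in HPLM/B27 (adjusted p = 0.0124). The IRS2 call in RPMI_glcM/B27 was lost without RPMI/B27 replicate 3 or 4 or RPMI_glcM/B27 replicate 1 or 2 (differences 0.71 to 0.83, adjusted p 0.0598 to 0.121), and the FBXO32 call without HPLM/B27 replicate 2 (1.29, adjusted p = 0.0505). Of 8 tested glucocorticoid targets limma called 0, with 3 at an unadjusted p under 0.05 in each comparison, and limma-voom called 2 in each.

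Among all tested genes, ARRDC4 had the profile most like that of TXNIP over the 16 libraries (Pearson r = 0.985 on log2(TPM + 1)). The next 5 were PPFIBP1 (r = 0.949), PSIP1 (r = 0.946), COL5A2 (r = 0.944), EMB (r = 0.933) and GCC2 (r = 0.933). ARRDC3 stood at rank 133 with r = 0.840, and MLXIP at rank 4716 with r = 0.452. The libraries fall into a high and a low cluster of TXNIP, and they share the line and the experiment, so the coefficients are a description without a test. The nearest gene after ARRDC4, PPFIBP1, was at 50.2 ± 6.60 TPM (SD, n = 4) in RPMI/B27 and 31.3 ± 3.95 TPM in RPMI_glcM/B27, a difference of -0.66 (adjusted p = 0.0105).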

How the data were processed

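Bulk total RNA of 16 wells was made into stranded libraries by the authors (Takara SMARTer kit), sequenced on a NovaSeq6000, aligned with STAR 2.5.3a to hg38 with decoy sequences and counted with featureCounts 2.0.3, with R 4.1.3 named in the submitters' processing notes. The deposited values are TPM per gene. The annotation, gene lengths and strand setting behind them are not given in the sources used here. The genes and lists were chosen with earlier results of these data known.

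Genes averaging 1 TPM or more were tested on log2(TPM + 1) with limma 3.58.1 (lmFit, eBayes with trend, R 4.3.3) over all 4 groups, with Benjamini-Hochberg adjustment per comparison (6 comparisons). Other values were computed with Python 3.11.15 and scipy 1.17.1. Library totals of 7744768 to 16183655 reads came from whole reads recovered from ratios of TPM (all 31047 genes above 0). Genes were named by rule: the 9 members, up to 4 genes per list with the largest absolute log2 difference among those called at Day 30, and the 5 non-members nearest to TXNIP by Pearson r. Alternatives were pseudocounts, filters, rescaling, fewer groups, left-out libraries, a replicate block, limma-voom on recovered reads and RNR1 as a covariate. The steps were tested on simulated data. Columns not used numbered 0. Genome positions of genes and overlaps came from GENCODE on hg38, and promoters from RefSeq on GRCh38.p14.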

Additional observations from a re-analysis of the deposited data

Results flagged for a closer look

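In groups of 4 libraries, a value was picked out when its gap to the next library was a very large share of the range of the group. TXNIP at Day 16 was picked out for replicate 2, at 180.1 TPM, and ARRDC4 for the same library, at 26.0 TPM. Day 16 replicate 2 was also the highest library of its group for 53.0% of tested genes. ARRDC4 in HPLM/B27 was picked out for replicate 4, at 3.74 TPM. MLXIPL in RPMI_glcM/B27 was picked out for replicate 1, at 0.122 TPM, which stood for 2 reads against 0 in the other libraries. Among all genes with a value in the group, 7.56% at Day 16, 6.31% in RPMI_glcM/B27 and 6.34% in HPLM/B27 met the same criterion. Chance alone gives such a value in about 1 in 20 groups. The causes were not tested.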

How the results depend on the processing

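TXNIP and ARRDC4 were called lower in both 5 mM media against RPMI/B27 under all 9 alternatives that kept every library and under every left-out library. With 1 library left out, TXNIP differed by -4.87 to -4.18 in RPMI_glcM/B27 and by -4.93 to -4.25 in HPLM/B27. The number of the 7 genes called against RPMI/B27 in RPMI_glcM/B27 was 4 after median-of-ratios rescaling, where 12.1% of all genes were called. Against Day 16, the number for RPMI/B27 was 0 with only the 2 groups fitted, 2 with limma-voom on recovered reads and 0 with RNR1 as a covariate. For RPMI_glcM/B27 and HPLM/B27 against Day 16 it was 5 after rescaling and 5 with limma-voom. Of all genes, 27.6% and 25.3% were called in these 2 comparisons after rescaling, and 29.6% and 29.5% with limma-voom. For RPMI/B27 against Day 16 limma-voom called 21.7%. The cause was not tested. Among other named genes, the calls of KLF10, SLC2A4 and IRS2 in RPMI_glcM/B27 and of KLF10, SCD, SLC2A4, SLC2A3, FBXO32 and COL1A2 in HPLM/B27 were lost with only the 2 groups fitted (adjusted p 0.0954 to 0.209). Those of the hepatic markers AFP, APOA2 and FGB held in 7, 5 and 8 of the 9 alternatives in RPMI_glcM/B27. In HPLM/B27 they held in 7, 6 and 9. Over all genes, 354 and 388 were called against RPMI/B27 and 11 between the 5 mM media. In the same order the counts were 1952, 2092 and 257 after rescaling, 1228, 1347 and 101 without mitochondrial and 7SK RNA, 45, 81 and 33 with only the 2 groups, 1993, 2484 and 268 with limma-voom, and 727, 1104 and 91 with RNR1 as a covariate. For RPMI/B27 against Day 16 they went from 3203 to 998 with only the 2 groups and 1388 with RNR1. Rescaling also changed the split of calls for RPMI/B27 against Day 16 from 336 higher and 2867 lower to 1413 of each.

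The labels do not say whether libraries of the same replicate number belong together, and the values did not settle it. Of 24 same-numbered pairs, 10 had deviations correlated above 0.1 (range -0.17 to 0.33), and 8 of 16 libraries correlated best with their own number. With a replicate block, the ratio values stayed at 4.85 and 4.82 against RPMI/B27 and 4.27 and 4.24 against Day 16 for TXN to TXNIP, and at -1.24, -1.94, -1.28 and -1.98 for TXNIP to ARRDC4, with an exact p of 0.125, the smallest that 4 sign changes allow. Over all genes the block called 721, 732 and 48 in the Day 30 comparisons. It also called ARRDC3 in RPMI_glcM/B27 against RPMI/B27 (-0.66, adjusted p = 0.0458) and MLXIP in RPMI_glcM/B27 and HPLM/B27 against Day 16 (-0.45 and -0.46, adjusted p = 0.0331 and 0.026). Without 1 library, where the smallest exact p is 0.0571, the log2 ratio of TXN to TXNIP was 4.56 to 5.12 and 4.54 to 5.09 against RPMI/B27, 4.03 to 4.49 and 3.99 to 4.51 against Day 16 and -0.28 to 0.24 between the 5 mM media. That of TXNIP to ARRDC4 was -1.42 to -1.09 and -2.19 to -1.78 against RPMI/B27, -1.46 to -1.13 and -2.23 to -1.82 against Day 16, and -0.15 to 0.089 for RPMI/B27 against Day 16.

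For TXN in RPMI_glcM/B27 against RPMI/B27 the value was -0.029 after rescaling, -0.0077 without mitochondrial and 7SK RNA and -0.045 with limma-voom. Between HPLM/B27 and RPMI_glcM/B27, TXNIP was at 0.0046 after rescaling, and after rescaling, without mitochondrial and 7SK RNA and with limma-voom MLXIP was at 0.059, 0.052 and 0.068 and MLX at 0.040, 0.030 and 0.033. For RPMI/B27 against Day 16, MLX was at 0.083 and 0.089 and TXN2 at 0.065 and 0.068 after rescaling and with limma-voom. With 1 library left out, the ranges that crossed 0 against RPMI/B27 were -0.24 to 0.11 (RPMI_glcM/B27) and -0.25 to 0.10 (HPLM/B27) for MLXIP, and -0.10 to 0.19 and -0.19 to 0.071 for TXN. Between the 5 mM media they were -0.28 to 0.11 for TXNIP, -0.089 to 0.11 for MLXIP, -0.11 to 0.054 for MLX, -0.22 to 0.025 for TXN and -0.016 to 0.11 for TXN2. Against Day 16 they were -0.12 to 0.57 for TXNIP in RPMI/B27 and -0.010 to 0.15 for MLX in HPLM/B27. Depth limits MLXIPL and ARRDC2, and the low TXNIP and ARRDC4 counts of the 5 mM media.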
